A study of Homo sapiens with 6 samples.

Results

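The G1/S cyclins, their cyclin-dependent kinases (CDKs) and the proteins that control them were followed in H460 cells after depletion of *HKlincR1*. The members are 10 genes, taken by name: *CCND1*, *CCND3*, *CCNE1*, *CCNE2*, *CCNA2*, *CDK2*, *CDK4*, *CDC25A*, *CDKN1B* and *SKP2*. All 10 were found among the 57773 genes of the deposited table, through GENCODE v44 gene names on GRCh37, and all 10 passed the filter on low values. H460 is a non-small-cell lung cancer cell line, and *HKlincR1* (AC093323.3) is a long intergenic noncoding RNA proposed to be needed by most cells. One group of 3 libraries came from cells given a non-targeting siRNA (siNT), and the other group of 3 from cells given an siRNA against AC093323.3 (si*HKlincR1*), both at 50 nM for 48 hours and with no other treatment. The comparison asks what loss of the lincRNA does to gene expression in these cells. One cell line and 1 siRNA against the lincRNA (si*HKlincR1*_2) were sequenced, so an effect of the lincRNA and an effect of that siRNA cannot be told apart.

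Cells commit to DNA replication late in G1. D-type cyclins bind CDK4 or CDK6 and begin to phosphorylate the retinoblastoma protein, which frees E2F transcription factors. E2F then drives genes such as the E-type cyclins and *CDC25A*, and cyclin E with CDK2 completes the phosphorylation. Cyclin A with CDK2 follows in S phase. The inhibitor p27 (*CDKN1B*) holds CDK2 back until SKP2, the substrate receptor of an SCF ubiquitin ligase, marks it for destruction. Much of this control acts on proteins, which polyA RNA libraries do not measure.

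Expression is given as RPKM, reads scaled to the length of the gene model and to the reads of the library. The libraries held between 24980280 and 30521000 reads, worked back from the RPKM values. *HKlincR1* was at 3.62, 3.47 and 3.83 RPKM with siNT and at 0.563, 0.628 and 0.390 RPKM with si*HKlincR1*, from 221 to 245 reads and from 27 to 42 reads. In both groups the third library stood apart from the others, and the third si*HKlincR1* library also had the lowest *HKlincR1* value. This was measured as the squared difference in reads relative to that of counting noise (chi-square per degree of freedom). With si*HKlincR1* it was 28.8 and 47.0 for the third library against the first and the second. Between the first and the second it was 10.1. With siNT these ratios were 16.3 and 18.1, against 4.17. The epithelial keratins *KRT8*, *KRT18* and *KRT19* were at 28.1 RPKM or above in all 6 libraries. The epithelial markers *CDH1* and *EPCAM* were near 0 (at most 1 and 8 reads), and of the blood and stromal markers only *COL1A1* exceeded 0.2 RPKM, at 0.998 to 1.23 with siNT and 0.419 to 0.773 with si*HKlincR1*; *PECAM1* was not matched in the table. The part of *COL1A1*-expressing cells in the results was not tested.

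No regulator passed the test. A gene was called when its adjusted p from limma was below 0.05, taken over the 15451 tested genes, and its fold exceeded 1.5. On this rule 0 of the 10 members were called in either direction, against 0.356% of tested genes called lower and 0.00647% called higher. With replicate as a block these shares were 0.809% and 0.511%, and again 0 members were called. At an unadjusted p under 0.05, 3 of the 10 members differed (*CCND3*, *CCNE1* and *CCNE2*, all lower), against 16.2% of tested genes. Voom on the reads without a block also called 0 members.

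Most members averaged somewhat lower with si*HKlincR1*. Of the 10 log2 fold changes, 8 were below 0, with a median of -0.18, against a median of 0.00 over all tested genes. The range ran from -0.90 for *CCNE2* to 0.15 for *CDKN1B*. All 3 si*HKlincR1* libraries lay below all 3 siNT libraries for *CCNE1*, *CCNE2* and *CDK2*, 3 of 10 members, where 11.9% of tested genes did so. No member lay wholly above, as 10.1% of tested genes did. With 3 libraries against 3, an exact two-sided permutation test of a single gene cannot give a p below 0.10. In bulk RNA, fewer cells in a phase and less RNA per cell cannot be told apart.

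**Figure D1:**
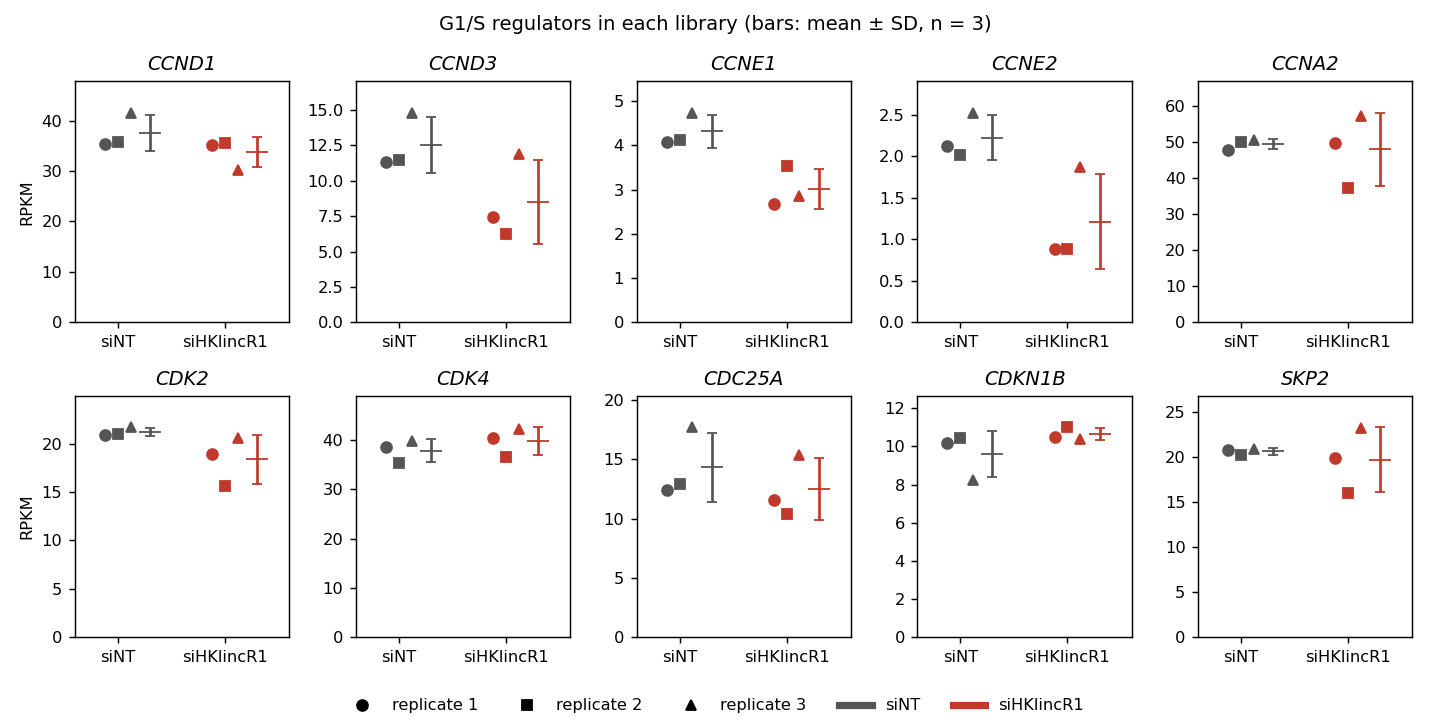
RPKM (vertical axis, from 0) of the 10 regulators in each siNT (grey) and siHKlincR1 (red) library, with a marker shape per replicate number and the mean ± SD of 3 libraries beside them. *CCNE1*, *CCNE2* and *CDK2* are the panels in which the groups do not overlap, and the triangle of the third siHKlincR1 library sits far above the other 2 for *CCNE2* and *CCND3*.

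The E-type cyclins held the lowest levels of the set and the clearest separation. *CCNE2* encodes cyclin E2, which activates CDK2 at the G1/S boundary. It was at 2.13, 2.02 and 2.53 RPKM with siNT and at 0.879, 0.888 and 1.88 RPKM with si*HKlincR1*. The first and second si*HKlincR1* libraries were far below the siNT range and the third just under it. In the siNT group *CCNE2* averaged 2.23 ± 0.269 RPKM (SD, n = 3), against 1.21 ± 0.573 in the si*HKlincR1* group (SD, n = 3). This is a log2 fold change of -0.90 (standard error 0.28, 95% confidence interval -1.56 to -0.24), short of the threshold (adjusted p = 0.230, limma). The values rest on 260, 271 and 278 reads with siNT and on 110, 113 and 247 reads with si*HKlincR1*.

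Whether *CCNE2* was called depended on the third si*HKlincR1* library and on the model. Over all alternatives the adjusted p ran from 0.0156 to 0.551. Without the third si*HKlincR1* library the log2 fold change of *CCNE2* was -1.24 and *CCNE2* was called (limma adjusted p = 0.0220). That fit called 2.03% of tested genes lower and 1.32% higher. Voom on the reads with the replicate block, chosen after the data were seen, called *CCNE2* as well (adjusted p = 0.0156), among 1.69% of tested genes lower and 1.05% higher. *CCNE2* lies on chromosome 8 from 95891998 to 95908906 on the minus strand (GRCh37), and 37% of its annotated exon bases are shared with exons of *INTS8* on the opposite strand. Whether the authors counted reads by strand is not given in the sources used here, so reads of both genes may be mixed. *INTS8*, a subunit of the Integrator complex, was at 3.63, 3.37 and 3.67 RPKM with siNT and at 2.88, 3.09 and 3.42 RPKM with si*HKlincR1*, with a log2 fold change of -0.18 (adjusted p = 0.370, limma).

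*CCNE1* encodes the paralogue cyclin E1. It was at 4.08, 4.12 and 4.74 RPKM with siNT and at 2.67, 3.53 and 2.86 RPKM with si*HKlincR1*. The groups did not overlap, and here the third si*HKlincR1* library sat between the other 2. *CCNE1* (chromosome 19, 30302898 to 30315219, GRCh37) differed by -0.51 on the log2 scale (standard error 0.12, 95% confidence interval -0.80 to -0.21, limma adjusted p = 0.170). Its standard error was smaller than that of *CCNE2*, and leaving out any 1 library kept the log2 fold change between -0.62 and -0.43. With voom and the replicate block its adjusted p was 0.0338, but its fold stayed under 1.5 and it was not called (over all alternatives the adjusted p ran from 0.0338 to 0.496).

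The highest si*HKlincR1* library was the second for *CCNE1* and the third for *CCNE2*, and the first was the lowest for both. Their summed level was 6.21, 6.14 and 7.27 RPKM with siNT and 3.55, 4.42 and 4.74 RPKM with si*HKlincR1*, with no overlap. *CCNE2* made up 34.3%, 32.9% and 34.8% of that sum with siNT. Its share was 24.8% and 20.1% in the first and second si*HKlincR1* libraries and 39.6% in the third. The sum had to be lower in all 3 si*HKlincR1* libraries, since *CCNE1* and *CCNE2* were each lower in all 3, and it is no further result. The share of *CCNE2* went below the siNT range in 2 and above it in 1. These sums use RPKM, which is per length of gene model, and depend on the lengths the authors used (2568 nt for *CCNE1* and 4399 nt for *CCNE2*, worked back from the values).

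Among the D-type cyclins, *CCND3* followed the same library pattern as *CCNE2*. *CCND3* encodes cyclin D3, a partner of CDK4 and CDK6. It was at 11.3, 11.5 and 14.8 RPKM with siNT and at 7.41, 6.22 and 11.9 RPKM with si*HKlincR1*. The first and second si*HKlincR1* libraries were below every siNT library, and the third lay inside the siNT range. *CCND3* (chromosome 6, 41902672 to 42018095, GRCh37) differed by -0.60 on the log2 scale (standard error 0.23, 95% confidence interval -1.15 to -0.05, limma adjusted p = 0.292). Without the third si*HKlincR1* library it was -0.86 and *CCND3* was called (limma adjusted p = 0.0302), and voom with the replicate block called it too (-0.59, adjusted p = 0.00958). Over all alternatives the adjusted p ran from 0.00958 to 0.588. A processed copy of the gene, *CCND3P1* on chromosome 10, held 20, 29 and 30 reads with siNT and 11, 6 and 23 reads with si*HKlincR1*, against at least 953 reads on *CCND3* in any library. Reads of the 2 genes may be split between them.

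*CCND1*, encoding cyclin D1, was the most abundant cyclin of G1. It was at 35.3, 35.7 and 41.6 RPKM with siNT and at 35.2, 35.6 and 30.3 RPKM with si*HKlincR1*. The first 2 libraries of each group were nearly equal, while the third was the highest with siNT and the lowest with si*HKlincR1*. The difference on the log2 scale was -0.15 (standard error 0.10, 95% confidence interval -0.38 to 0.07, limma adjusted p = 0.445). In the third si*HKlincR1* library *CCND1* was thus at its lowest and *CCND3* at the highest of its group. *CCND1* shares 10.4% of its annotated exon bases with *LTO1* on the opposite strand, which averaged 1.85 RPKM with siNT.

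The summed level of the D-type cyclins was 46.6, 47.2 and 56.4 RPKM with siNT and 42.7, 41.9 and 42.1 RPKM with si*HKlincR1*. The groups did not overlap, and the 3 si*HKlincR1* sums had an SD of 0.391 RPKM against 5.51 RPKM with siNT. The difference between the sums was not tested. *CCND3* made up 24.2%, 24.3% and 26.2% of the sum with siNT and 17.4%, 14.8% and 28.2% with si*HKlincR1*. *CCND2*, the remaining D-type cyclin, stayed at or below 0.0870 RPKM in all libraries and was not tested.

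**Figure D2:**
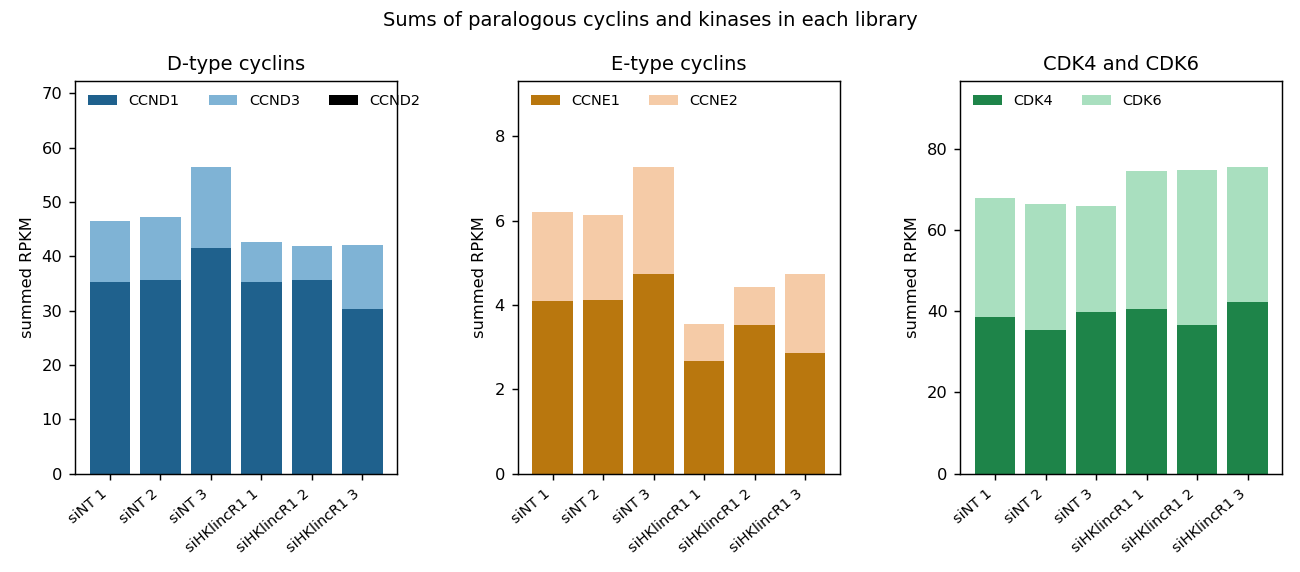
Summed RPKM (vertical axis, from 0) of the D-type cyclins, the E-type cyclins and the kinases CDK4 and CDK6 in each of the 6 libraries, with 1 colour per gene. The D-type and E-type sums are lower in all 3 siHKlincR1 libraries than in all 3 siNT libraries, while the sum of *CDK4* and *CDK6* is higher (74.5 to 75.5 against 65.9 to 67.7 RPKM). For the E-type sum this follows from *CCNE1* and *CCNE2* each being lower in all 3. The sums were not tested, and how often such sums separate over other genes was not worked out. The sum of *CDKN1A*, *CDKN1B* and *CDKN1C*, not plotted, overlapped between groups.

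*CCNA2*, the S-phase partner of CDK2, was the most abundant member per length and did not separate by group. It was at 48.0, 50.0 and 50.7 RPKM with siNT and at 49.7, 37.2 and 57.4 RPKM with si*HKlincR1*. The si*HKlincR1* libraries lay on both sides of the siNT range, with an SD of 10.2 RPKM against 1.41 RPKM with siNT. The log2 fold change of *CCNA2* was -0.07 (95% confidence interval -0.42 to 0.28, limma adjusted p = 0.842). That interval includes differences in either direction, and it is not a limit of detection. *EXOSC9*, on the opposite strand, shares 9.2% of the annotated exon bases of *CCNA2*.

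The kinases differed little between groups. *CDK2*, the partner of cyclins E and A, was at 20.9, 20.9 and 21.7 RPKM with siNT and at 18.9, 15.6 and 20.6 RPKM with si*HKlincR1*. All si*HKlincR1* values were below the siNT values, the third by little, since its 20.6 RPKM neighboured the lowest siNT value. *CDK2* had a log2 fold change of -0.21 (standard error 0.11, 95% confidence interval -0.46 to 0.03, limma adjusted p = 0.351). With the replicate block the interval of *CDK2* was -0.42 to -0.01 (limma adjusted p = 0.181).

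*CDK4*, the partner of D-type cyclins, was at 38.5, 35.3 and 39.8 RPKM with siNT and at 40.5, 36.6 and 42.2 RPKM with si*HKlincR1*. The groups overlapped, and the log2 fold change was 0.07 (standard error 0.08, 95% confidence interval -0.12 to 0.26, limma adjusted p = 0.680). *CDK4* shares 44.2% of its annotated exon bases with *TSPAN31* on the opposite strand, with means of 3.12 (siNT) and 3.30 RPKM (si*HKlincR1*). Its paralogue *CDK6*, no member of the set, was at 29.2, 30.9 and 26.1 RPKM with siNT and at 34.0, 38.0 and 33.3 RPKM with si*HKlincR1*. The *CDK6* groups did not overlap (log2 fold change 0.29, standard error 0.09, limma adjusted p = 0.227). *CDK6* made up 39.6% to 46.7% of the summed level of both kinases with siNT and 44.1% to 50.9% with si*HKlincR1*.

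*CDC25A* encodes the phosphatase that removes inhibitory phosphates from CDK2. It was at 12.4, 12.9 and 17.7 RPKM with siNT and at 11.6, 10.4 and 15.4 RPKM with si*HKlincR1*. In both groups the third library was the highest, and the groups overlapped. *CDC25A* had a log2 fold change of -0.20 (standard error 0.18, 95% confidence interval -0.63 to 0.23, limma adjusted p = 0.591). Within same-numbered pairs it was -0.10, -0.31 and -0.20, so the spread between replicate numbers was wider than the spread of the paired differences. With the replicate block the interval of *CDC25A* was -0.36 to -0.04 (limma adjusted p = 0.132).

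E2F factors bind short GC-rich sites, and the promoters of the members were searched on both strands for the core TTGGCGC. Its variant TTCGCGC was counted with it, as was the variant with letters TTCCCGC. The last form searched was TTGCCGC. RefSeq promoter windows (GRCh38.p14, 250 bases before to 50 after the start) were held for 7 of the 10 members, with 9 windows in all. No window was held for *CCND1*, *CCNE2* and *CDK2*, so these were not searched. The motif was found in 1 window, that of *CDC25A*, while 13.0% of all 35116 windows hold it. The match is a description and no measure of binding. The *CDC25A* window is shown because it carries TTGGCGC on both strands in overlapping copies, 43 and 40 bases before the start, marked in capitals. It lies at chr3:48188368-48188667 on the minus strand.
CDC25A promoter: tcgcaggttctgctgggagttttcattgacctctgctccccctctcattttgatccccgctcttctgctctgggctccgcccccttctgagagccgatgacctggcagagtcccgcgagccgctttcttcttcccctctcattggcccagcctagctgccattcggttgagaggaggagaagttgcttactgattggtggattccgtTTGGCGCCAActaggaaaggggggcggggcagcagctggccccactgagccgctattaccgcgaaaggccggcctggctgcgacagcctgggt

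The brake and its remover differed little between groups. *CDKN1B* (p27) was at 10.2, 10.4 and 8.25 RPKM with siNT and at 10.5, 11 and 10.4 RPKM with si*HKlincR1*. The low value was the third siNT library, and the groups overlapped. The difference was 0.15 on the log2 scale (standard error 0.10, 95% confidence interval -0.09 to 0.39, limma adjusted p = 0.473). *CDKN1B* made up 16.6% to 22.6% of the summed RPKM of *CDKN1A*, *CDKN1B* and *CDKN1C* with siNT and 22.6% to 25.3% with si*HKlincR1*. That sum was 45.2, 46.2 and 49.6 RPKM with siNT and 43.8, 43.5 and 46.1 RPKM with si*HKlincR1*, with overlap.

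*SKP2* was at 20.8, 20.2 and 20.9 RPKM with siNT and at 19.8, 16.0 and 23.2 RPKM with si*HKlincR1*. As for *CCNA2*, the si*HKlincR1* values spread to both sides of a narrow siNT range, with an SD of 3.58 RPKM against 0.365 RPKM. *SKP2* had a log2 fold change of -0.08 (standard error 0.13, 95% confidence interval -0.38 to 0.22, limma adjusted p = 0.770).

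**Figure D3:**
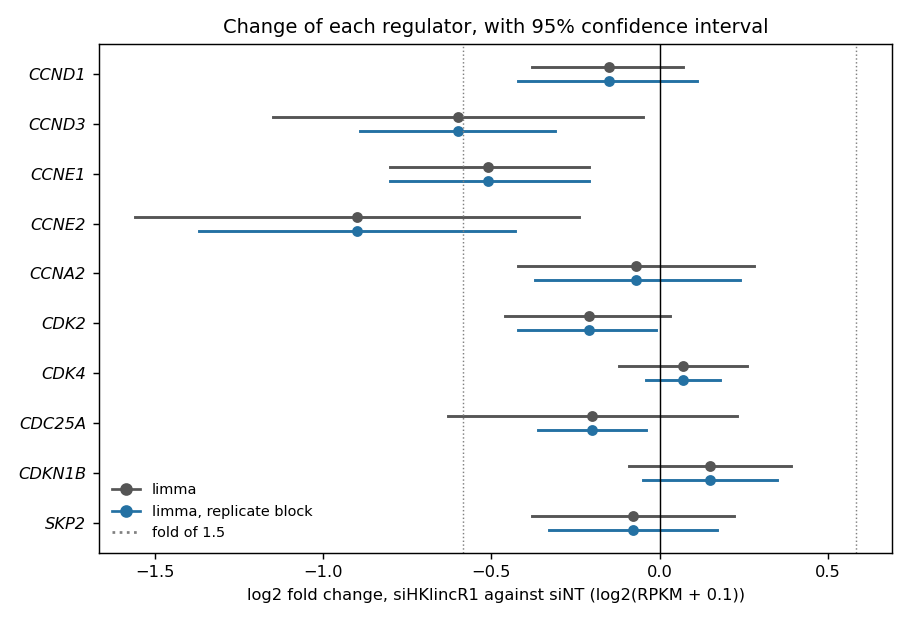
Log2 fold change (horizontal axis, siHKlincR1 against siNT on log2(RPKM + 0.1)) of each regulator with its 95% confidence interval, from limma without (grey) and with (blue) the replicate block. The intervals of *CCND3*, *CCNE1* and *CCNE2* lie below 0 in both fits, and those of *CDK2* (-0.42 to -0.01) and *CDC25A* (-0.36 to -0.04) only with the block. The dotted lines mark a fold of 1.5.

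The order of levels within the siNT cells ran from *CCNA2* (49.6 RPKM on average) through *CDK4* (37.9), *CCND1* (37.5), *CDK2* (21.2), *SKP2* (20.6), *CDC25A* (14.3), *CCND3* (12.5), *CDKN1B* (9.61) and *CCNE1* (4.31) to *CCNE2* (2.23). The ranges of *CDK4* and *CCND1* overlapped, as did those of *CDC25A* and *CCND3*. The other neighbours had separate ranges. With si*HKlincR1* the same genes stood at either end, while *SKP2* came before *CDK2* and *CDKN1B* before *CCND3*, each within overlapping ranges.

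Several members differed more between libraries of the si*HKlincR1* group than between groups. The third si*HKlincR1* library was the highest of its group for 7 of the 10 members, where it was the highest for 39.1% of tested genes. The second was the lowest for 6 of 10. The third siNT library was the highest of its group for 9 of 10, all but *CDKN1B*. For the second si*HKlincR1* and the third siNT library the share over all tested genes was not worked out. Whether those counts are particular to the members is therefore not known. The third siNT library stood apart over all genes. Against the siNT mean, the median difference of the 10 members was -0.13, -0.39 and 0.04 on the log2 scale in the first, the second and the third si*HKlincR1* library.

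Of the members, 6 of 10 were lower with si*HKlincR1* in all 3 same-numbered pairs, where 25.2% of tested genes were. They were *CCND1*, *CCND3*, *CCNE1*, *CCNE2*, *CDK2* and *CDC25A*. The differences of *CCNE2* were -1.19, -1.10 and -0.41, and those of *CCND3* -0.60, -0.88 and -0.32. *CDK4* and *CDKN1B* (2 of 10) were higher in all 3 pairs, as were 24.0% of tested genes, with differences of at most 0.08 for *CDK4* and 0.33 for *CDKN1B*. *CCNA2* and *SKP2* had pairs in both directions.

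**Figure D4:**
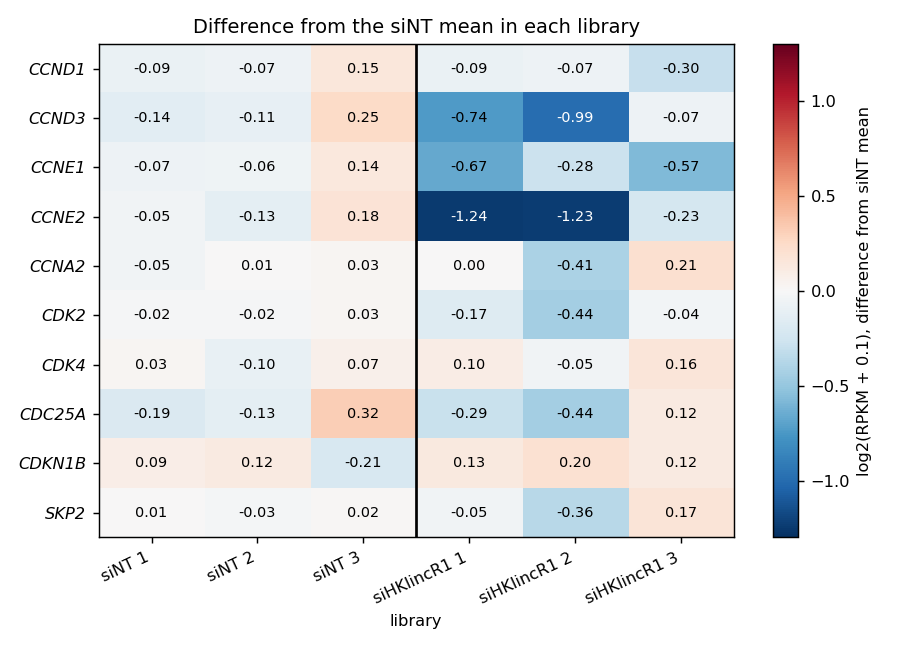
Difference of each regulator from its siNT mean, on log2(RPKM + 0.1), in every library (columns) with the value in each cell. The first and second siHKlincR1 libraries are near -1.2 for *CCNE2* and at -0.74 and -0.99 for *CCND3*, whereas the third is at -0.23 and -0.07.

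Sequence complementarity to the siRNA was examined because an siRNA can lower transcripts through its seed, as microRNAs do. The siRNA sequenced was si*HKlincR1*_2. Its guide strand was designed to pair with the lincRNA, and bases 2 to 8 of that strand, in capitals, pair with GTGTGCT.
guide strand: aAGCACACgaguauacuuc
None of the 10 members (0 of 10) holds GTGTGCT in the 3′ UTR of its canonical GENCODE v44 transcript on GRCh37, which ranged from 535 nt for *CCNE1* to 3192 nt for *CCND1*. The share that hold it was 14.1% over all 10759 tested genes whose 3′ UTR was at least 30 nt long. Among the 12 further pathway genes looked at singly, which leave out *E2F1*, *TFDP1* and *E2F2* hold 1 site each, shown with the site in capitals. They lie at chr13:114294771-114294799 on the plus strand and chr1:23834212-23834240 on the minus strand of GRCh37.
TFDP1 site: ttttgataccaGTGTGCTgatgcagagcg
E2F2 site: gcttgtgccccGTGTGCTcagcagctgcc
A match in letters does not show that a site acts, and its absence from these 3′ UTRs says nothing of sites elsewhere in the transcripts.

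The wider pathway was described with 53 further genes in 6 lists, of which 47 were tested. Of these 0 were called without the block, at the shares given above. With the replicate block in limma 1 was called, *MYC*. Other genes had an adjusted p under 0.05 in that fit but a fold under 1.5. Among them were *TFDP1* (limma adjusted p = 0.0175), *E2F1* (log2 fold change -0.42, limma adjusted p = 0.0444) and *PKMYT1* (limma adjusted p = 0.0475). The median log2 fold change of the 47 was -0.04, with 26 below and 21 above 0. All si*HKlincR1* libraries lay below siNT for 6 and above for 4, where 11.9% and 10.1% of tested genes did. These counts of separated groups were near the background. At an unadjusted p under 0.05 (limma), 15 of the 47 differed, against 16.2% of tested genes.

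Pocket proteins and E2F factors form the gate that the cyclins open. Of 10 genes, 6 had log2 fold changes below 0, with a median of -0.09 and 0 called. *TFDP1*, the DNA-binding partner of E2F factors, was at 29.0, 27.1 and 33.2 RPKM with siNT and at 20.3, 18.1 and 22.3 RPKM with si*HKlincR1*. The groups did not overlap, but its log2 fold change of -0.56 was under the fold required (limma adjusted p = 0.101). *E2F2*, an activator E2F, averaged 3.71 RPKM with siNT and 2.72 with si*HKlincR1* (log2 fold change -0.47, adjusted p = 0.301, limma). Without the third si*HKlincR1* library both were called (*TFDP1* -0.63, adjusted p = 0.0299; *E2F2* -0.69, adjusted p = 0.0301), and over all alternatives the adjusted p ran from 0.00132 to 0.368 for *TFDP1* and from 0.0301 to 0.600 for *E2F2*.

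Of the other CDK inhibitors, 3 of 6 were expressed well enough to be tested, and 0 were called. *CDKN2C*, an INK4 inhibitor of CDK4 and CDK6, was at 4.90, 4.67 and 5.32 RPKM with siNT and at 3.28, 2.34 and 5.16 RPKM with si*HKlincR1*. The first 2 si*HKlincR1* libraries were low and the third lay in the siNT range, as for *CCND3*. Its log2 fold change was -0.52 (limma adjusted p = 0.345), and -0.81 without the third si*HKlincR1* library, when it was called (limma adjusted p = 0.0348, over all alternatives 0.0348 to 0.660). *CDKN2D* was next in size, at -0.16. *CDKN2B* is listed at 0 in all libraries, and *CDKN2A*, which H460 cells are known to have lost by deletion, had 1 read in 1 library and 0 in the others.

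Among the other cyclins, CDKs and CKS subunits, 3 of 6 genes were tested and 0 called. *CDK6* is given above, and *CKS2*, a small CDK-binding subunit, was at -0.16 on the log2 scale (adjusted p = 0.650, limma). Of 8 genes that set CDK phosphorylation, 4 were below 0 and 4 above, and 0 were called. *PKMYT1*, an inhibitory kinase of CDK1, had the largest difference (-0.39, limma adjusted p = 0.296), followed by *CDK7*, the kinase that activates CDKs (0.23, limma adjusted p = 0.464).

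Of 13 ligases and partners that act on G1/S cyclins, p27 or SKP2, 6 were below 0 and 7 above, with a median of 0.05 and 0 called. *FZR1* encodes the APC/C activator that marks SKP2 for destruction in G1. It was at 5.73, 6.01 and 6.51 RPKM with siNT and at 4.65, 4.46 and 5.28 RPKM with si*HKlincR1*. The groups did not overlap (log2 fold change -0.34, limma adjusted p = 0.198). *FBXO31*, an F-box protein that acts on cyclin D1, was at higher levels with si*HKlincR1* (0.23, limma adjusted p = 0.295), with all si*HKlincR1* libraries above all siNT libraries.

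Of 10 upstream signals, 5 were below 0 and 5 above. *MYC*, a transcription factor that promotes G1 progression, was at 110.7, 114.3 and 93.5 RPKM with siNT and at 184.9, 187.2 and 116.3 RPKM with si*HKlincR1*. All si*HKlincR1* libraries were above all siNT libraries, the third by little. *MYC* had a log2 fold change of 0.59 (standard error 0.19, limma adjusted p = 0.237), and it passed both thresholds with the replicate block (limma adjusted p = 0.0493). *FOSL1*, an AP-1 subunit, was at 39.2, 39.9 and 45.5 RPKM with siNT and at 69.2, 76.4 and 44.8 RPKM with si*HKlincR1*. The third si*HKlincR1* library lay inside the siNT range, and the log2 fold change was 0.58 (limma adjusted p = 0.245). Without the third si*HKlincR1* library *MYC* and *FOSL1* were both called (log2 fold change 0.81 each, limma adjusted p = 0.0224 and 0.0195). With all 6 libraries, voom with the replicate block also called both (adjusted p = 0.00541 for *MYC* and 0.0436 for *FOSL1*). Over all alternatives the adjusted p of *MYC* reached up to 0.557 and that of *FOSL1* lay between 0.0195 and 0.563.

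**Figure D5:**
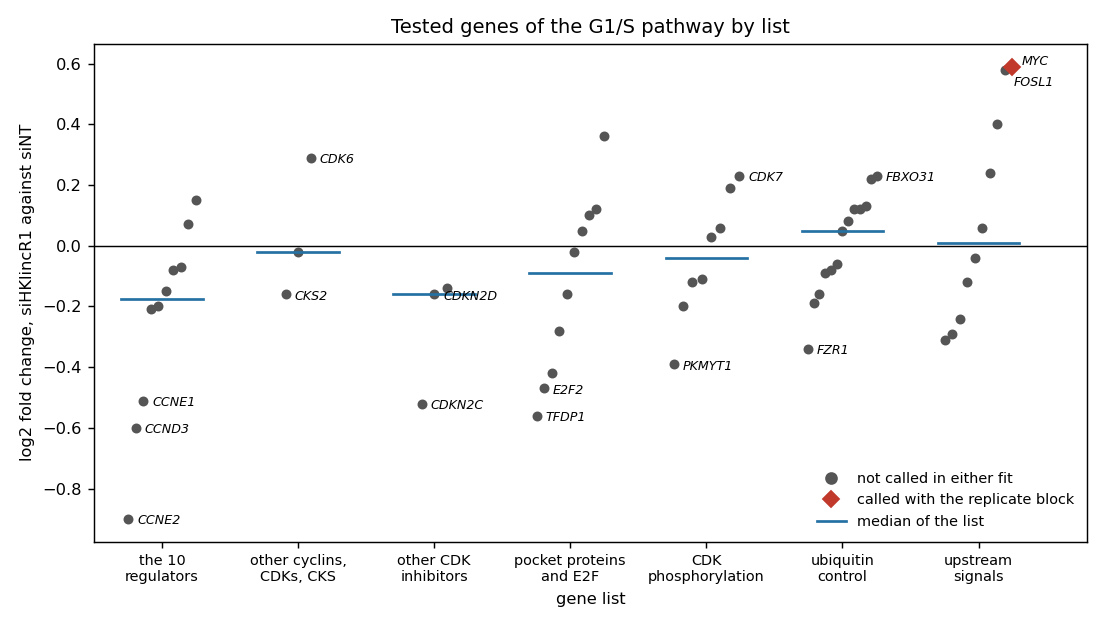
Log2 fold change (vertical axis, siHKlincR1 against siNT) of the tested genes, 1 point per gene, for the 10 regulators and the 6 further lists, with the median of each list as a blue line. *MYC*, the red diamond, passed both thresholds with the replicate block, and no gene shown passed them without it.

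*CCNE2* had close company in its library pattern. Over the 6 libraries, the tested genes whose log2 differences from the siNT mean were nearest to those of *CCNE2* were *TENT5A*, *LGR4* and *SLC2A6*, with root mean square differences of 0.07, 0.13 and 0.13. *TENT5A* encodes a noncanonical poly(A) polymerase, *LGR4* a receptor for R-spondins and *SLC2A6* a glucose transporter family member. Their log2 fold changes were -0.86, -0.94 and -0.93, and none was called (limma adjusted p = 0.242, 0.121 and 0.268).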

How the data were processed

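Indexed strand-specific polyA libraries of H460 cells, 3 per group, were sequenced by the authors with paired-end reads. Per the submitters' processing notes CASAVA 1.8.2 and featureCounts were used, on hg19 (GRCh37). The authors counted reads on Ensembl gene models and deposited RPKM values per gene, unrounded and 1 column per library. The aligner and strand setting are not given in the sources used here.

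Library totals, gene lengths and reads were worked back from the RPKM values, which came out whole for all 31287 genes above 0 (tolerance 0.0001 reads). A factor common to the reads of a gene in all 6 libraries cannot be recovered this way. Tests used limma 3.58.1 in R 4.3.3 (lmFit, eBayes with trend) on log2(RPKM + 0.1) for the 15451 genes averaging 0.5 RPKM or more over all libraries, with Benjamini-Hochberg adjustment over all of them. The added constant makes fold changes of low genes too small. Calls needed an adjusted p under 0.05 and a fold above 1.5. The fit was tested on simulated data with known changes. Those changes were larger than that of any member, and no simulated library stood apart. Power for changes of the members' size was not tested.

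Labels give each group replicates 1 to 3. Deviations of same-numbered libraries from their group means correlated across genes at 0.142, 0.137 and 0.266. Those of different-numbered libraries correlated at -0.209 to 0.113, so the first and second pairs stood little above the highest of these. The main fit used no block. The replicate block, an alternative, takes the numbers to pair the libraries, which is thus uncertain for the first and second. Results with a replicate block are given where the block changes a call, and for some other genes.

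The members and gene lists were chosen with earlier results of these data known. Named genes were the members, the 2 largest changes and every call in each list, and the 3 genes nearest to *CCNE2*. *E2F1* is named besides, for its adjusted p with the replicate block. Gene names came from GENCODE v44 on GRCh37 (55538 of 57773 identifiers). RefSeq promoters were on GRCh38.p14. P-values measure the spread between libraries, described as biological replicates, and not that between cell lines or siRNAs.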

Additional observations from a re-analysis of the deposited data

How the results depend on the processing

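Every member had at least 110 reads in every library, and the share of counting error in the spread between libraries was not tested. Over the 10 members and 16 alternatives each, 154 of 160 results kept their direction and their call, which needs both the adjusted p and the fold, 4 became called (*CCND3* and *CCNE2*, each without the third si*HKlincR1* library and with voom and the replicate block) and 2 changed sign. *CCNA2* lay between -0.20 and 0.11 and *SKP2* between -0.21 and 0.06 when 1 library was left out, both above 0 only without the second si*HKlincR1* library, as was *CKS2* (-0.31 to 0.02). The number of members called was 0 with limma, 0 to 2 when 1 library was left out and 2 with voom and the replicate block.

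The number of genes called lower, 55 with limma, was 125 with the replicate block, 34 without a filter on low RPKM, 16 without a variance trend, 84 with voom and 261 with voom and the replicate block, and 7 to 314 when 1 library was left out. The number called higher, 1 with limma, was 79 with the replicate block, 0 at a pseudocount of 0.01, 12 without a filter, 3 with voom, 162 with voom and the replicate block, 2 at an adjusted p under 0.05 alone, and 0 to 204 when 1 library was left out. Both upper ends came without the third si*HKlincR1* library. The cause of these shifts was not tested. Within limma the replicate block changed the call of *MYC* and of no other member or pathway gene named. With the block, limma adjusted p-values were 0.0615 for *CCND3*, 0.0687 for *CCNE2* and 0.0807 for *CCNE1*. The alternatives were not examined for *TENT5A*, *LGR4* and *SLC2A6*. The log2 fold change of *HKlincR1* was between -2.80 and -1.61 and was called in every alternative. Within voom, the block changed the calls of *CCND3*, *CCNE2*, *MYC* and *FOSL1*. Voom with the replicate block was chosen after seeing the data.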
